A study of Macaca mulatta with 4 samples.

Results

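The mitochondrial death pathway was followed through 9 genes in the amygdala of infant rhesus macaques (Macaca mulatta): BAX, BAK1, BAD, BCL2L11, BCL2, BCL2L1, MCL1, APAF1 and CASP9. They were chosen by symbol, and each of the 9 matched 1 of the 35395 Ensembl macaque gene IDs counted. RNA was sequenced from 2 sevoflurane libraries (1 female, 1 male) and 2 control libraries (1 female, 1 male), all from wild-type animals. Sevoflurane, an inhaled ether anaesthetic, was given at about 2.5 to 3% for 4 hours on about postnatal days 7, 21 and 35, and the amygdala was taken straight after exposure 3. The sources used here do not give the age of the controls or what they breathed, so sevoflurane and any other difference in handling cannot be told apart. The labels tell the 2 libraries of a condition apart by sex and do not otherwise state that they are separate animals. Each p therefore rests on the spread between these libraries, which edgeR moderated toward a trend over all tested genes. In the comparison of conditions, which had condition as its only term, that spread includes any difference between the sexes. Reads on genes were 14413858 and 13615927 in the sevoflurane female and male, against 16293371 and 12477047 in the control female and male.

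Mitochondrial apoptosis is set by a balance within the BCL2 protein family. BAX and BAK1 form pores in the outer mitochondrial membrane, BCL2, BCL2L1 (BCL-XL) and MCL1 hold them in check, and BH3-only proteins such as BAD and BCL2L11 (BIM) oppose that restraint. Cytochrome c released through the pores assembles APAF1 into the apoptosome, which activates the initiator caspase CASP9. Developing neurons rely on this route for programmed death, and it is a main subject of work on anaesthetic neurotoxicity in infant brain. The proteins are also regulated by modification, cleavage and movement to mitochondria, none of which RNA sequencing measures.

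The comparison asked how transcripts of this pathway stood after repeated sevoflurane. BAD and BAX transcripts were lower in both sevoflurane libraries, by 7.09-fold and 4.21-fold, while BCL2L11 and APAF1 were each 11.3-fold higher. The transcripts of the 3 survival proteins and of BAK1 and CASP9 did not pass the test. All 4 called genes act on the death-promoting side, 2 of them higher and 2 lower. Calls were made at an adjusted p under 0.05 with edgeR's quasi-likelihood test over all 15417 genes that passed a filter on low counts. All 9 members passed that filter. The 4 calls among 9 stand beside 40.7% of all tested genes called, 21.3% called higher and 19.4% called lower, so the share called is near the background. The median log2 fold change of the members was 0.32, beside 0.0040 for all tested genes.

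**Figure D1:**
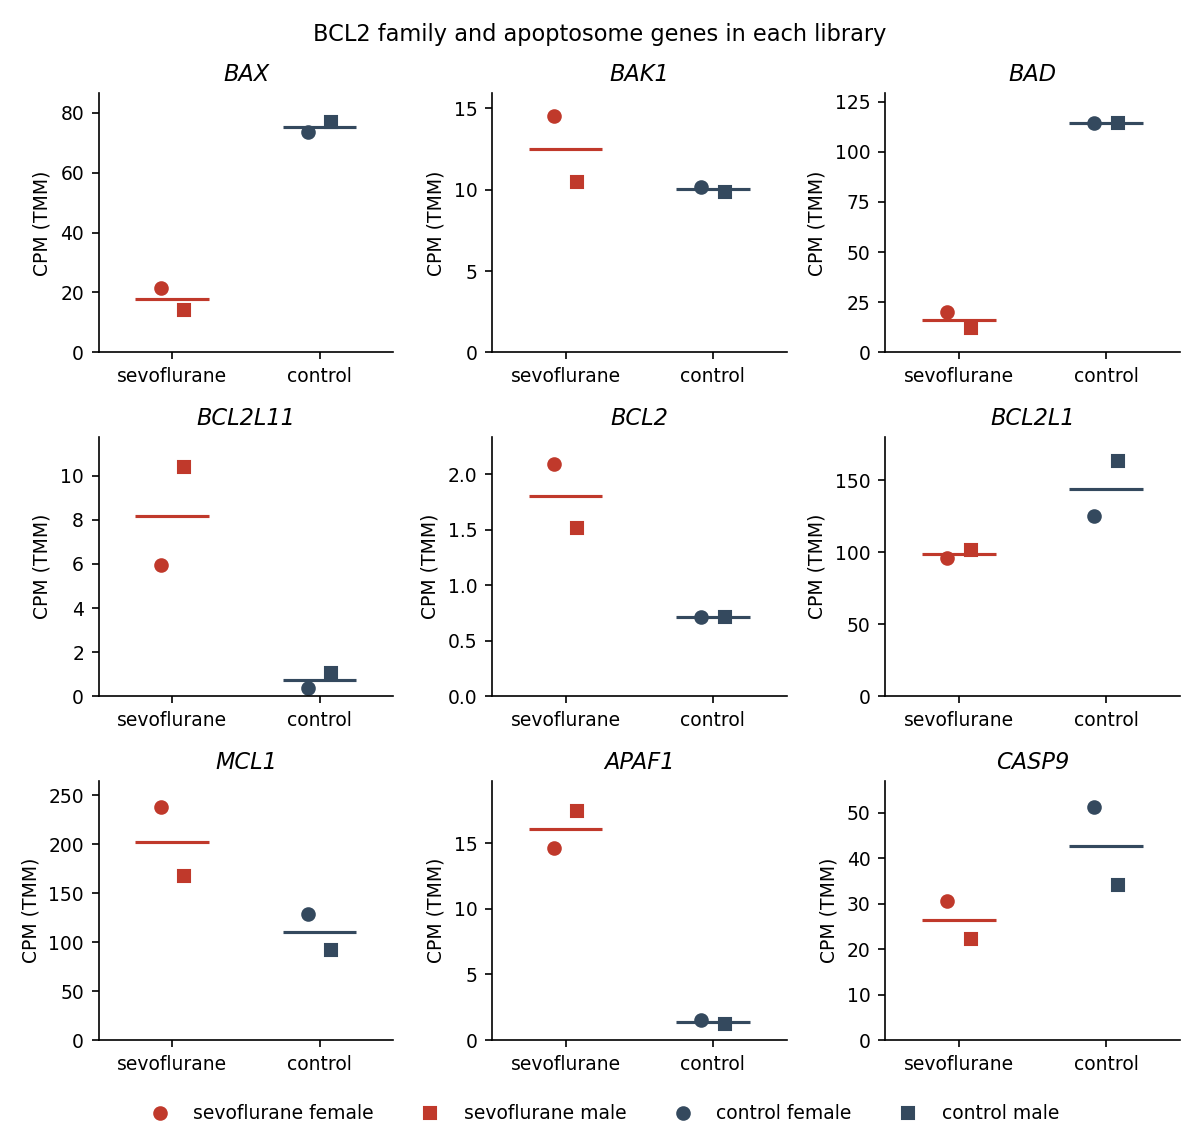
Level of the 9 genes in each library in CPM, the reads on a gene per 1000000 reads of the TMM-scaled library (y axis from 0, 1 scale per gene), with circles for females, squares for males and a line at the mean of the 2 libraries of a condition. The sevoflurane and control libraries do not overlap for any of the 9 genes, as was true of 75% of all tested genes, and the gap is widest relative to the level for BAX, BAD, BCL2L11 and APAF1.

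Levels are in CPM, the reads on a gene per 1000000 reads of the library after TMM scaling. BAX (ENSMMUG00000003907), a pore-forming effector, stood at 21.5 and 14.3 CPM in the sevoflurane female and male, against 73.6 and 76.8 CPM in the control female and male. Both sevoflurane libraries were low and the 2 controls lay close together. The means were 17.9 ± 5.07 CPM after sevoflurane and 75.2 ± 2.30 CPM in controls (SD, n = 2 each), a log2 fold change of −2.07 ± 0.32 (SE) with edgeR adjusted p = 0.00468. BAK1 (ENSMMUG00000063304), the other effector, stood at 14.5 and 10.4 CPM in the sevoflurane female and male, against 10.2 and 9.86 CPM in the control female and male. The sevoflurane male lay close to both controls. The log2 fold change of BAK1 was 0.32 with a 95% confidence interval of −0.63 to 1.26 (edgeR adjusted p = 0.546), so a change of up to that size in either direction was not resolved.

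Of the BH3-only genes, 1 fell and 1 rose. BAD (ENSMMUG00000060596), whose protein binds BCL2 and BCL-XL when it is not phosphorylated, stood at 20.1 and 12.2 CPM in the sevoflurane female and male, against 114.29 and 114.32 CPM in the control female and male. The controls were nearly equal, and every sevoflurane value was far below them. The mean was 16.1 ± 5.59 CPM after sevoflurane and 114.31 ± 0.022 CPM in controls (SD, n = 2 each). The log2 fold change was −2.83 ± 0.33 (SE, edgeR adjusted p = 0.00262). Of all tested genes, 2.62% had a lower log2 fold change than BAD, and 7.53% had a lower one than BAX.

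BCL2L11 (ENSMMUG00000018423), which encodes BIM, an activator that is transcriptionally induced by FOXO factors and by stress kinases, was scarce in controls. It had 94 and 151 reads in the sevoflurane female and male, against 6 and 12 in the control female and male. In CPM these were 5.95 and 10.4 after sevoflurane, against 0.391 and 1.07 in controls. Both sevoflurane libraries lay above both controls, and the male was the higher of the 2 in each condition. The log2 fold change was 3.50 ± 0.73 (edgeR adjusted p = 0.0122). Leaving out the sevoflurane male library ended the call (log2 fold change 3.04, edgeR adjusted p = 0.0816), and the fold moved with the control used, to 4.33 on the log2 scale when the control male was left out and 2.95 when the control female was.

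None of the 3 survival genes passed the test. MCL1 (ENSMMUG00000053525), whose protein turns over quickly and is needed for survival of developing neurons in mice, stood at 237.4 and 167.2 CPM in the sevoflurane female and male, against 128.8 and 91.7 CPM in the control female and male. It was higher after sevoflurane within each sex, by 0.88 log2 in females and 0.87 in males. The overall log2 fold change of 0.88 ± 0.31 missed the threshold narrowly (95% confidence interval 0.13 to 1.62, edgeR adjusted p = 0.0618). MCL1 was called higher with library totals as scaling (adjusted p = 0.0370), with DESeq2 (0.0312), without a filter (0.0246) and with sex as a block (0.0182), while leaving out 1 library gave adjusted p-values of 0.0617 to 0.324.

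BCL2 (ENSMMUG00000059194), the founding survival gene, had few reads in every library: 33 and 22 in the sevoflurane female and male, against 11 and 8 in the control female and male. These are 2.09 and 1.51 CPM after sevoflurane, and 0.718 and 0.711 CPM in controls. The log2 fold change of 1.32 had a 95% confidence interval of −0.31 to 2.95 (edgeR adjusted p = 0.160), and counts this low limit what could be called. Whether the annotation used for counting holds the whole BCL2 transcript was not checked here. BCL2L1 (ENSMMUG00000005985), which encodes BCL-XL, a survival protein of neurons in mice, lay the other way. It stood at 96.0 and 101.4 CPM in the sevoflurane female and male, against 125.0 and 163.3 CPM in the control female and male. Both sevoflurane values were the lower ones, but the log2 fold change of −0.55 (95% confidence interval −1.17 to 0.08) did not pass the test (edgeR adjusted p = 0.136).

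Of the apoptosome genes, APAF1 rose and CASP9 did not pass the test. APAF1 (ENSMMUG00000022404), the scaffold that cytochrome c opens, stood at 14.6 and 17.4 CPM in the sevoflurane female and male, against 1.57 and 1.24 CPM in the control female and male. It had 231 and 254 reads after sevoflurane, against 24 and 14 in controls. The groups were far apart relative to their spread, and the log2 fold change was 3.50 ± 0.47 (edgeR adjusted p = 0.00344). In mice, APAF1 expression declines as the brain matures. CASP9 (ENSMMUG00000018163), the caspase that the APAF1 scaffold recruits, stood at 30.6 and 22.3 CPM in the sevoflurane female and male, against 51.3 and 34.1 CPM in the control female and male. Both sevoflurane values lay under both controls, and the female was the higher in each condition. Its log2 fold change of −0.69 (95% confidence interval −1.52 to 0.14) was not called (edgeR adjusted p = 0.151).

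**Figure D2:**
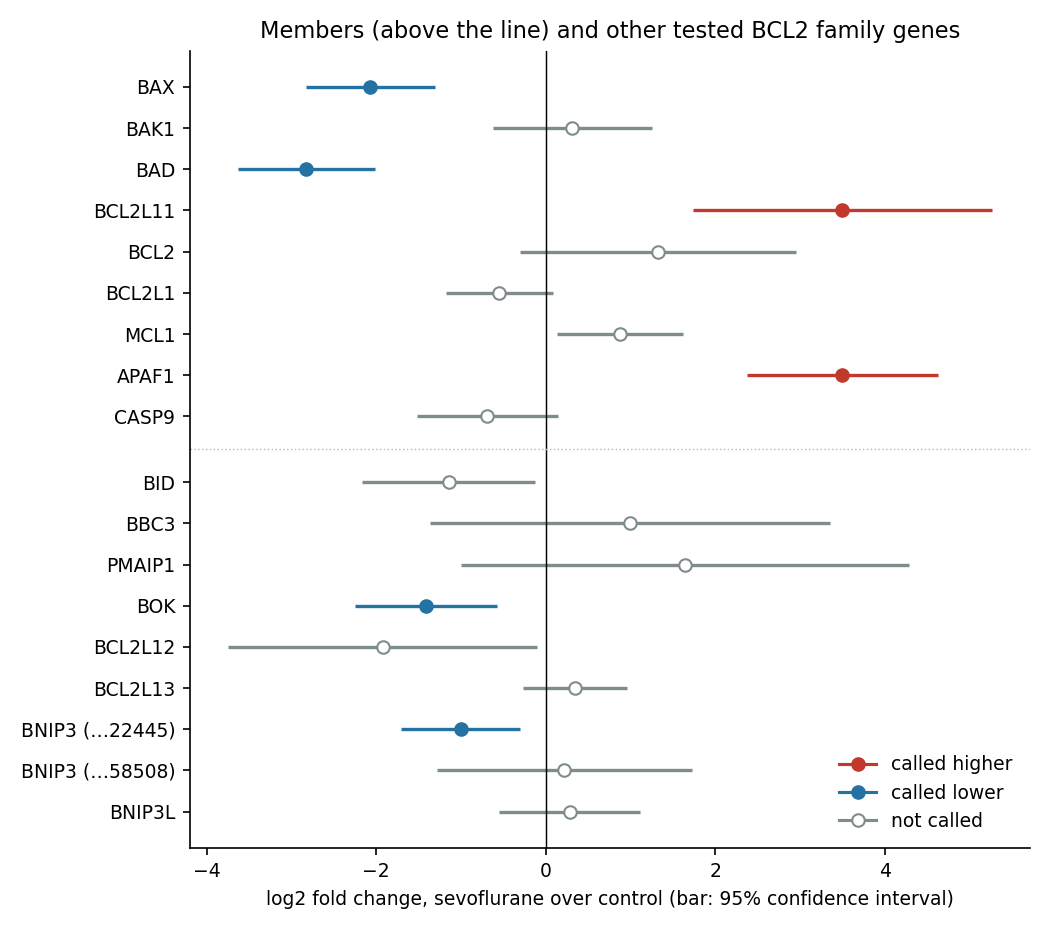
Log2 fold change of sevoflurane over control (x axis) with its 95% confidence interval for the 9 members, above the dotted line, and for the other tested genes of the BCL2 family below it. Filled points passed the edgeR test: BAX, BAD, BOK and 1 of 2 BNIP3 IDs were called lower and BCL2L11 and APAF1 higher, and the intervals of BBC3 and PMAIP1 are the widest of those that span 0.

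The balance between death-promoting and survival members was described by the log2 ratio of their CPM within a library, in which scaling nearly cancels. The level of such a ratio depends on transcript length and only its difference between conditions was read. A shift between conditions that varies with transcript length would remain in that difference, and this was not tested. The ratio of BAX to BCL2 was 3.28 and 3.13 in the sevoflurane female and male, against 6.42 and 6.50 in the control female and male, a difference of −3.26. The ratio of BAX to BCL2L1 was −2.15 and −2.82 after sevoflurane, against −0.76 and −1.09 in controls (difference −1.56). Both BAX ratios were thus lower in each sevoflurane library than in any control. The ratio of BAD to BCL2L1 was −2.25 and −3.05 after sevoflurane, against −0.13 and −0.51 in controls (difference −2.33). BAK1 over MCL1 was −4.02 and −3.98 after sevoflurane, against −3.64 and −3.20 in controls (difference −0.58).

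The remaining ratios were higher after sevoflurane. BCL2L11 over BCL2 was 1.45 and 2.67 in the sevoflurane female and male, against −0.69 and 0.50 in the control female and male (difference 2.15). In the control female and male, BCL2L11 had 6 and 12 reads and BCL2 had 11 and 8. This ratio and that of BAX to BCL2 thus rest on few reads there. APAF1 over CASP9, a ratio chosen after its values were seen, was −1.06 and −0.35 after sevoflurane, against −4.91 and −4.63 in controls (difference 4.07). In each of the 6 ratios the conditions did not overlap, and the exact two-sided permutation test over libraries gave p = 0.333, the smallest value that 2 against 2 libraries allow. Of all tested genes, 75% also did not overlap between conditions, and no such share was computed for ratios.

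**Figure D3:**
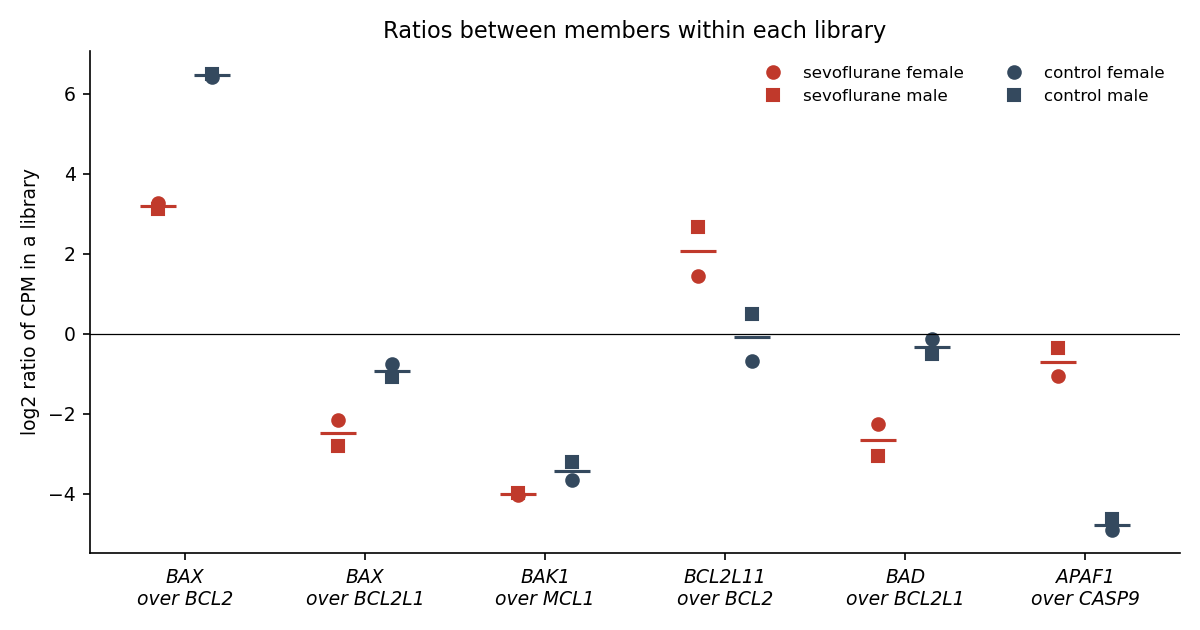
Log2 ratio of CPM between pairs of members within each library (y axis), sevoflurane on the left and control on the right of each pair, with circles for females, squares for males and a line at the mean. The BAX and BAD ratios and BAK1 over MCL1 lie lower in the sevoflurane libraries, and BCL2L11 over BCL2 and APAF1 over CASP9 lie higher.

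The direction of change was the same in females and in males for all 9 members, as for 85.3% of all tested genes. BAX changed by −1.77 log2 in females and −2.42 in males, and BAD by −2.50 and −3.22. BCL2L11 changed by 3.52 and 3.12, and APAF1 by 3.11 and 3.67. The change in each sex rests on 1 library per condition, so the difference between the sexes in these changes was not tested.

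Between the sexes themselves, with condition as a term, 0 of the 9 members were called, beside 1.84% of all tested genes. None reached an unadjusted p under 0.05 with edgeR (0 of 9), and DESeq2 called 0. The largest difference was that of BCL2L11, 1.04 log2 higher in males than in females with a 95% confidence interval of −0.29 to 2.36. MCL1 and CASP9 differed by −0.50 and −0.52 in the same direction of subtraction, with intervals that also spanned 0.

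**Figure D4:**
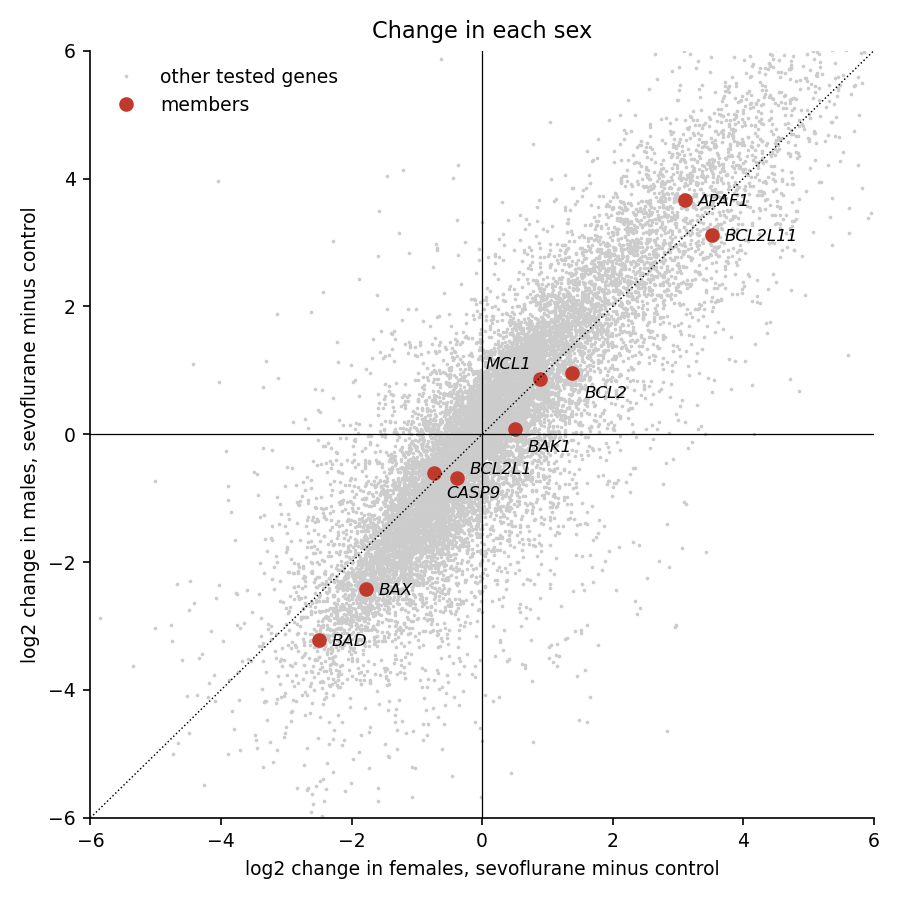
Log2 change from sevoflurane in males (y axis) against that in females (x axis), each sevoflurane minus control from 1 library per condition, for the 9 members (red) and all other tested genes (grey); 125 tested genes lie outside the plotted range of 6 log2 units either way. All 9 members lie in the quadrants of equal sign, with BAX and BAD at lower left and BCL2L11 and APAF1 at upper right.

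Of 16 symbols of other BCL2 family genes, 14 matched an ID in the table and 9 IDs passed the filter. Of these, 0 were called higher and 2 lower, beside 40.7% of all tested genes called in either direction. With sex as a block 4 were called lower, beside 50.8% of all tested genes called in either direction. BOK, a BAX-like effector, stood at 25.8 ± 2.28 CPM after sevoflurane and 68.9 ± 26.3 CPM in controls (SD, n = 2 each; log2 fold change −1.42 ± 0.35, edgeR adjusted p = 0.0206). BNIP3, a mitochondrial receptor for mitophagy, is carried by 2 IDs, and reads may have been split between them. ENSMMUG00000022445, at 144.8 ± 37.4 CPM after sevoflurane and 290.0 ± 40.0 CPM in controls, was called lower (edgeR adjusted p = 0.0350) and ENSMMUG00000058508, at 2.93 ± 0.064 CPM after sevoflurane and 2.51 ± 1.16 CPM in controls, was not. The call of BOK was lost without the control male library or either sevoflurane library, and that of BNIP3 without either control library, without the sevoflurane female and with library totals.

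BH3-only genes induced by cellular stress were variable. BBC3 (PUMA) stood at 14.0 and 1.51 CPM in the sevoflurane female and male, against 5.09 and 2.66 CPM in the control female and male. PMAIP1 (NOXA) stood at 6.77 and 0.756 CPM after sevoflurane, against 0.652 and 1.78 CPM in controls. For both genes the sevoflurane female was the highest library, and the sevoflurane male lay below both controls for BBC3 and between them for PMAIP1. Neither was called (edgeR adjusted p = 0.446 and 0.265). BID, which links death receptors to mitochondria, stood at 8.36 and 6.32 CPM after sevoflurane, against 19.8 and 12.7 CPM in controls, and was not called (log2 fold change −1.15, edgeR adjusted p = 0.0713). It was called lower with sex as a block (edgeR adjusted p = 0.0355) and when the control male was left out (0.0497).

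Genes that act in the same pathway on either side of the family were grouped into 5 further lists. Their counts stand beside 21.3% of all tested genes called higher and 19.4% called lower. Of 12 tested genes of mitochondrial release, channels and membrane dynamics, 2 rose and 2 fell (median log2 fold change −0.11). OPA1, which fuses the inner membrane and keeps the cristae that hold cytochrome c, rose to 133.9 ± 44.4 CPM after sevoflurane, against 17.9 ± 2.87 CPM in controls (SD, n = 2 each; log2 fold change 2.90 ± 0.34, edgeR adjusted p = 0.00263). MFN1, an outer-membrane fusion protein, rose by 0.89. The 2 that fell were HTRA2 (−1.16) and DIABLO (−1.02), both released from mitochondria to relieve inhibitor of apoptosis proteins. CYCS, the cytochrome c gene, had a log2 fold change of 0.06 (95% confidence interval −0.56 to 0.69) and was not called. The calls of MFN1, HTRA2 and DIABLO were each lost when the sevoflurane male or the control female was left out, MFN1's also without the control male, and DIABLO's without any 1 of the 4 libraries.

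Among 6 inhibitors of apoptosis, 2 rose and 0 fell (median 1.32). With library totals, DESeq2's test, no filter, a filter of 5 CPM or sex as a block, 4 rose. Under these settings 33.7% to 50.8% of all tested genes were called in either direction. XIAP, which binds CASP9 directly, stood at 17.3 and 19.6 CPM in the sevoflurane female and male, against 1.24 and 1.95 CPM in the control female and male (log2 fold change 3.53 ± 0.47, edgeR adjusted p = 0.00344). BIRC6, a giant ubiquitin ligase that targets caspases and DIABLO, stood at 151.3 ± 1.38 CPM after sevoflurane and 19.7 ± 7.27 CPM in controls (SD, n = 2 each; 2.94 ± 0.34). Both sevoflurane values of each gene lay above both controls.

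Of 10 other caspases and caspase substrates, 1 rose and 1 fell (median −0.0083), beside 21.3% and 19.4% of all tested genes. ROCK1, a kinase cleaved by caspases, stood at 52.3 and 45.1 CPM in the sevoflurane female and male, against 17.6 and 17.4 CPM in the control female and male (log2 fold change 1.48 ± 0.29, edgeR adjusted p = 0.00986). GSN, the actin-severing substrate gelsolin, stood at 37.2 and 28.5 CPM in the sevoflurane female and male, against 98.9 and 142.3 CPM in the control female and male (−1.87 ± 0.31, edgeR adjusted p = 0.00591). For both genes the conditions did not overlap, and both calls held without any 1 library.

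Of 8 tested death receptors and adaptors, 0 rose and 2 fell (median 0.19), beside 21.3% and 19.4% of all tested genes. Both that fell were adaptors. These were the adaptors TRADD (9.40 ± 2.02 CPM after sevoflurane and 34.9 ± 11.1 CPM in controls, log2 fold change −1.89 ± 0.38, edgeR adjusted p = 0.0110) and FADD (3.19 ± 0.33 CPM after sevoflurane and 10.7 ± 0.45 CPM in controls, −1.75 ± 0.45, edgeR adjusted p = 0.0245), with SD and n = 2 for each mean. Both calls were lost without the sevoflurane male library, and FADD's also without the control female or the sevoflurane female.

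Of 18 upstream kinases and regulators, 9 rose and 0 fell (median 0.88). With other scalings, tests and filters or sex as a block, 9 to 11 rose and 0 to 2 fell. Beside these, 33.7% to 50.8% of all tested genes were called in either direction. FOXO3, a transcription factor of BCL2L11, rose to 133.2 and 85.9 CPM in the sevoflurane female and male, against 13.5 and 5.51 CPM in the control female and male (log2 fold change 3.52 ± 0.50, edgeR adjusted p = 0.00397). It lay at 4.33 log2 when the control female was left out and at 2.98 when the control male was. MAPK8, the stress kinase JNK1, which acts on BCL2 family proteins, rose to 55.4 and 52.7 CPM in the sevoflurane female and male, against 8.22 and 1.599 CPM in the control female and male (3.44 ± 0.71, edgeR adjusted p = 0.0116). The control female and male differed widely for MAPK8, which lay at 5.10 log2 when the control female was left out and at 2.69 when the control male was. AKT1, a kinase that phosphorylates BAD and FOXO3, lay at −0.75 log2 (edgeR adjusted p = 0.0545), and CDKN1A, a cell-cycle inhibitor, at −1.09 (edgeR adjusted p = 0.161); neither was called. Over the 6 lists together, 14 of 63 tested genes rose and 7 fell, beside 21.3% and 19.4% of all tested genes. The share that rose is near the background and the share that fell lies below it, a difference that was not tested.

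**Figure D5:**
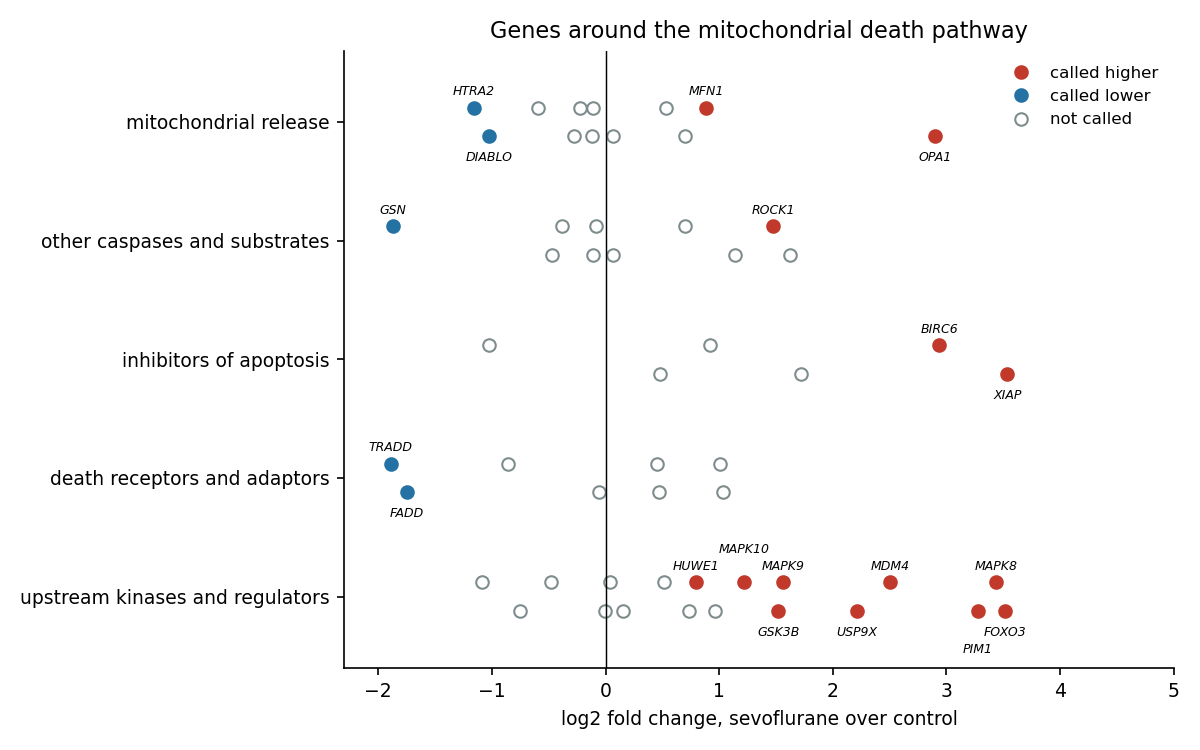
Log2 fold change of sevoflurane over control (x axis) for the tested genes of 5 pathway lists (rows), with genes called by edgeR filled and named and all others open; the vertical offset within a row only separates points. Called genes lie on both sides of 0 for mitochondrial release and for caspases and substrates, to the right for inhibitors of apoptosis and upstream genes, and to the left for death receptor adaptors.

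By likeness of pattern over the 4 libraries, measured as the Euclidean distance between log2 CPM after subtraction of each gene's mean, the nearest of 71 pathway genes to BAX were GSN (0.425), FADD (0.481) and TRADD (0.494). The nearest to BCL2 were RIPK1 (0.316), ROCK1 (0.335) and GSK3B (0.413). With 4 libraries in 2 conditions, such distances mostly order genes by the size of their change.

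Some classes of transcript and cell markers differed between the same libraries. Of 74 cytosolic ribosomal protein genes, whose messenger RNAs are short, 65 were called lower and 0 higher, with a median log2 fold change of −1.79. BAX and BAD, at −2.07 and −2.83, both lay below that median. Transcript length was not measured, and whether BAX and BAD differ from this class was not tested. The 5 general neuronal markers summed to 5341 and 5974 CPM in the sevoflurane female and male, against 4852 and 4381 CPM in the control female and male. Their members went opposite ways, with SYT1 called higher (log2 fold change 5.24) and RBFOX3 lower (−1.04). Excitatory neuron markers (4 genes) summed to 2098 and 1763 CPM after sevoflurane and 6066 and 4888 CPM in controls, where most of it was NRGN. NRGN alone was called (−2.48). SLC17A7 lay lower (−0.50) and SLC17A6 (1.71) and TBR1 (0.54) lay higher, without a call. Astrocyte markers (4 genes) summed to 923 and 1649 CPM after sevoflurane and 2735 and 2696 CPM in controls, where most of it was GFAP. GFAP was called lower (−2.53) and SLC1A2 higher (4.30). Microglial markers (6 genes, 5 called lower) summed to 122 and 125 CPM after sevoflurane and 370 and 340 CPM in controls. Myelin markers (3 genes) summed to 2604 and 3436 CPM after sevoflurane and 1219 and 5560 CPM in controls. Of 3 inhibitory neuron markers 0 were called. Of 3 endothelial markers FLT1 was called higher (4.97) and CLDN5 lower (−2.63), and of 2 oligodendrocyte precursor markers PDGFRA was called higher (0.99). Choroid plexus markers (4 genes) summed to 28.2 and 3.30 CPM after sevoflurane, against 13.3 and 17932 CPM in the control female and male. With the control female as the only control, BAX was at −2.08, BAD at −2.86, APAF1 at 3.32 and BCL2L11 at 4.33. The part of any of these classes in the results, choroid plexus included, was not tested. In bulk tissue fewer cells of a type and less RNA per cell cannot be told apart.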

How the data were processed

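The authors deposited unnormalized read counts for each Ensembl macaque gene, with a column for every library. Their aligner was HISAT2, per the submitters' processing notes. The sources used here do not give its version, the counter, the build or strand handling. A gene ID table gave symbols to 24173 of 35395 IDs. Genes with near-identical copies or overlapping neighbours are uncertain.

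In R 4.3.3, genes were filtered with filterByExpr (minimum count 10), which left 15417. Counts were scaled by TMM and tested with edgeR 4.0.16 (glmQLFit, glmQLFTest), with condition as the only term (2 residual degrees of freedom), or condition and sex for the sex comparison (1). P-values were Benjamini-Hochberg adjusted over all tested genes and called under 0.05. Standard errors were derived from the F statistic. Log2 CPM used a prior count of 2. The fit was tested on simulated data in which a small share of genes changed, balanced in direction. That test does not cover changes as widespread as those found here. DESeq2 1.42.0 and other scalings, filters and left-out libraries were alternatives. Named genes were all 9 members and, per pathway list, the 2 called genes of largest rise and of largest fall with the same direction in both sexes. Others named were chosen after their values were seen. Members and lists were chosen with earlier results of these data known. With 2 libraries a condition, depth and replicate number limit precision, and BCL2 rests on few reads. Some genes of the pathway lists are not reported here, and list counts leave them out.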

Additional observations from a re-analysis of the deposited data

Results flagged for a closer look

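Among BCL2 family genes, 4 IDs moved in opposite directions in the sexes, each sex resting on 1 sevoflurane and 1 control library; the difference was not tested. BBC3 changed by 1.43 log2 in females and −0.76 in males, and PMAIP1 by 3.12 and −1.10. BNIP3L changed by −0.37 in females and 0.85 in males. The less abundant of the 2 BNIP3 IDs, ENSMMUG00000058508, changed by −0.15 and 0.73.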

How the results depend on the processing

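The count of 6278 called genes was 6176 with library totals, 6289 with DESeq2 size factors, 7027 with DESeq2's test, 7466 without a filter, 6114 with a filter of 5 CPM in 2 libraries and 7825 with sex as a replicate block, and 3469 to 5800 with 1 library left out (3469 without the sevoflurane male). Members called were 4 in the main comparison, beside 40.7% of all tested genes called. With library totals, DESeq2's test, no filter or the replicate block they were 5, MCL1 joining. The share of all tested genes called was then 40.1%, 45.6%, 33.7% and 50.8%, in that order. The labels give no replicate numbers, and sex is the only tie between libraries of different conditions. No member reversed under any of its 9 or 10 alternatives. BAX ranged from −2.39 to −1.80, BAD from −3.22 to −2.51, APAF1 from 3.32 to 3.72 and BCL2L11 from 2.95 to 4.33. BCL2 had no value under the 5 CPM filter. The median of all tested genes was 0.24 with library totals, beside 0.0040 with TMM. With 1 library left out, signs reversed for BNIP3 ENSMMUG00000058508 (−0.21 without the control male, up to 0.82), BBC3 (−1.35) and PMAIP1 (−0.65) without the sevoflurane female (up to 1.85 and 2.49), and BNIP3L (−0.18 without the sevoflurane male, up to 0.65); the cause was not tested. BAX over BCL2 was −3.37 with a prior count of 0.5 and −3.34 to −3.19 with 1 library left out; the other ratios ranged from −1.89 to −1.23 (BAX over BCL2L1), −0.80 to −0.36 (BAK1 over MCL1), 1.54 to 2.76 (BCL2L11 over BCL2), −2.73 to −1.93 (BAD over BCL2L1) and 3.71 to 4.42 (APAF1 over CASP9). Among the other BCL2 family genes 0 to 4 fell across alternatives.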

Other observations

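Of the listed genes with an ID, 7 had too few reads to test. BMF, a BH3-only gene, had 15 and 3 reads in the sevoflurane female and male and 0 in both control libraries. BCL2A1, a survival gene of blood cells, had 6 and 6 reads after sevoflurane and 5 and 2 in controls, and FASLG had 0 and 2 after sevoflurane and 0 in both controls.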
